A study of Mus musculus with 7 samples.

Results

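Paqr9 and Hsdl2 were among the genes with the steepest falls in newborn mouse hearts that lacked the retinoid X receptors alpha and beta in cardiomyocytes, and they are described here with their family relatives. Both were selected on this contrast, because their values in the 4 knockout (edKO) libraries did not overlap those in the 3 wild-type (WT) libraries. The relatives are Paqr3, Paqr4, Paqr7, Paqr8, Adipor1 and Adipor2 of the PAQR family, and Hsdl1, which shares its name stem with Hsdl2. Of these 9 genes, 8 were among the 13788 genes listed, and the level of Paqr3 was not analysed here. The difference between groups in Paqr9 and Hsdl2 is what chose them, so it is given without a test.

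Total RNA came from whole hearts of C57BL/6 newborns on postnatal day 0. One group was wild-type (n = 3), and the other carried a cardiomyocyte-specific deletion of both Rxra and Rxrb (n = 4). The promoter driving the deletion is not given in the sources used here, and the non-cardiomyocytes of a whole heart keep both receptors by design. In such bulk RNA, fewer cells of a type and less RNA per cell cannot be told apart. Levels are normalised reads per 1000000 of effective library size, called normalised reads from here on, and means are given ± SD.

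PAQR proteins are membrane proteins with several transmembrane helices, and the adiponectin receptors among them insert in the opposite sense to G protein-coupled receptors. AdipoR1 and AdipoR2 are the receptors of the fat-cell hormone adiponectin and have ceramidase activity, and PAQR7 and PAQR8 bind progestins. In mouse liver PAQR9 has been described as a regulator of PPAR alpha stability, and nuclear receptors of the PPAR family bind DNA as partners of retinoid X receptors. HSDL2 is a short-chain dehydrogenase with a sterol carrier protein (SCP2) domain at its end, found in peroxisomes, and HSDL1 is a related protein that lacks that domain.

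The sequence before the start of Hsdl2 is shown because the gene stood so much lower in edKO hearts. Those of Hsdl1 and of Adipor2, the relative that passed the test, are given for contrast. Each is the 250 bases before a RefSeq start on the GRCm38.p6 build, 5′ to 3′ on the gene's strand, and capitals mark GC boxes (GGGCGG, searched on both strands). Hsdl2 is at chr4:59581313-59581562 on the plus strand, Hsdl1 at chr8:119575176-119575425 on the minus strand and Adipor2 at chr6:119388735-119388984 on the minus strand. The Adipor2 start used lies inside the annotated span of that gene (chr6:119353150-119417704), so its stretch is not the sequence before the outermost annotated start.
Hsdl2: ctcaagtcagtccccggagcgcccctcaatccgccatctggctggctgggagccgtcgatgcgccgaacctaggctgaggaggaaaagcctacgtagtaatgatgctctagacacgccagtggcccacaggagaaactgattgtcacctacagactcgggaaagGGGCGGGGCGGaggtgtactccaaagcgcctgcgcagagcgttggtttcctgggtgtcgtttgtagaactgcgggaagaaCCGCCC
Hsdl1: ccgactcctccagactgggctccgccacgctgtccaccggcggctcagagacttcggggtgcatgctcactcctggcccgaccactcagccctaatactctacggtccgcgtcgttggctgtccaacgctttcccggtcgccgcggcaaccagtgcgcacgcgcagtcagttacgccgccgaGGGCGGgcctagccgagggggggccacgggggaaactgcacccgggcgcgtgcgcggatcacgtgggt
Adipor2: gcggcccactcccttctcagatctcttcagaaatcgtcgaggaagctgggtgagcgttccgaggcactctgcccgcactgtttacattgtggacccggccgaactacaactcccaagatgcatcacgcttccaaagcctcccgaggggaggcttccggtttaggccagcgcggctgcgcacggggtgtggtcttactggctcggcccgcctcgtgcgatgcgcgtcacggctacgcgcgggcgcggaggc
The Hsdl2 stretch held 3 GC boxes, of which 2 overlap, the Hsdl1 stretch shown held 1 and that of Adipor2 held 0. A stretch before another start of Hsdl1, not shown, held 2. Over the member genes, Paqr3 included, 10 of 12 such stretches held at least 1, against 32.7% of all 32851 promoters, and this motif was chosen after the sequences were seen. GC content of the stretches shown was 60.4% for Hsdl2, 70.0% for Hsdl1 and 64.8% for Adipor2, against a median of 52.4% over all promoters.

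The nuclear receptor hexamer AGGTCA, searched on both strands, was present in 1 of the 12 full windows, which add the 50 bases after the start (a window of Paqr8), against 16.3% of all promoters. A direct repeat of the hexamer with 1 base between the copies and up to 2 mismatches in 12 bases was present in 1 of the 12 windows (Paqr7), against 3.86% of all promoters. The best match in the Hsdl2 window had 5 mismatches. These matches describe letters in short windows and say nothing of binding.

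Paqr9 is a single-exon gene (ENSMUSG00000064225) at chr9:95559657-95568023 on the plus strand of GRCm38, with 1 annotated transcript of 8367 bases. Its level was 29.0, 29.5 and 33.5 normalised reads in WT replicates 1, 2 and 28. In edKO replicates 5, 6, 15 and 33 it was 3.36, 3.77, 3.98 and 6.01. The lowest WT library was 4.83 times the highest edKO library, so no edKO heart came near the WT range.

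The Paqr9 means were 30.7 ± 2.46 in WT (n = 3) and 4.28 ± 1.18 in edKO (n = 4), which is 7.17-fold lower. The log2 difference of −2.61, taken on log2(value + 1), was the 10th steepest of 13788, between Lrtm1 at −2.66 and Gm10603 at −2.33. The values rest on 376, 428 and 460 reads in the WT libraries and on 38, 62, 66 and 147 in the edKO libraries. For the lowest of these, 38 reads, the 95% Poisson interval of 26.9 to 52.2 reads covers counting error only. None of the 8307 stretches of 61 bases in the gene, the length of a read, occurs in another annotated transcript.

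Hsdl2 (ENSMUSG00000028383) lies at chr4:59581563-59618689 on the plus strand, with 3 annotated transcripts of up to 12 exons. Its levels were 283, 345 and 308 normalised reads in the WT libraries. In the edKO libraries they were 91.7, 92.9, 81.0 and 56.1, in the replicate order given for Paqr9. The lowest WT library was 3.04 times the highest edKO library.

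The Hsdl2 means were 312 ± 31.1 in WT and 80.4 ± 17.1 in edKO, a 3.88-fold difference and a log2 difference of −1.96. It was the 13th steepest fall, between Adra1b at −2.18 and Pdk4 at −1.91. In WT hearts Hsdl2 lay at percentile 97.1 of all listed genes by level and Paqr9 at percentile 60.8, so the picks differ widely in abundance. The Hsdl2 values rest on 1051 to 5010 reads per library.

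**Figure D1:**
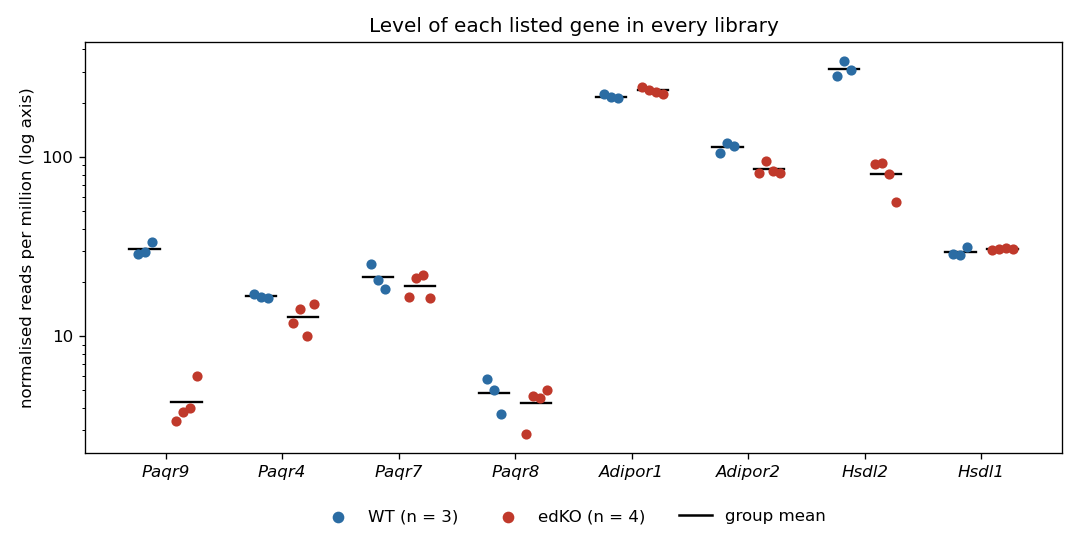
Normalised reads (log axis) of each listed member gene in the 3 WT and 4 edKO libraries, with 1 point per library and a bar at each group mean. The Paqr9 and Hsdl2 groups are widely apart, with edKO values of 3.36 to 6.01 and 56.1 to 92.9, whereas most relatives lie close together.

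Adiponectin receptors were the most abundant relatives, and Adipor2 was the only one of the 6 tested relatives to pass the test. Adipor2 (chr6:119353150-119417704, minus strand) stood at 106, 120 and 115 in WT hearts. Its edKO values were 82.0, 95.6, 83.4 and 81.9, all below the WT range. It fell from 114 ± 6.84 to 85.7 ± 6.62, which is 1.33-fold (log2 −0.40, SE 0.09, 95% interval −0.60 to −0.21, limma adjusted p = 0.0305). The call was lost on leaving out WT replicate 1 (adjusted p = 0.0573), 2 (0.155) or 28 (0.118) or edKO replicate 5 (0.0803) or 15 (0.0833), and without the mean-variance trend (0.0844).

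Adipor1 (chr1:134415378-134433351, plus strand), the adiponectin receptor best known from muscle, did not pass. It measured 225, 216 and 214 in WT and 247, 239, 233 and 227 in edKO. The groups touch without overlap, the highest WT value being 224.8 and the lowest edKO value 226.6. Means were 218 ± 5.62 and 236 ± 8.83 (log2 0.11, 95% interval −0.06 to 0.28, limma adjusted p = 0.454).

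The progestin-binding members Paqr7 and Paqr8 overlapped between genotypes. Paqr7 measured 25.4, 20.7 and 18.3 in WT and 16.5, 21.3, 22.1 and 16.5 in edKO. Paqr8, the least abundant of the listed members in WT, measured 5.74, 4.99 and 3.67, and 2.84, 4.67, 4.52 and 4.99 in edKO. In each gene the groups run through each other. The Paqr7 means (chr4:134496697-134510235, plus strand) were 21.5 ± 3.61 in WT and 19.1 ± 3.03 in edKO (log2 −0.16, 95% interval −0.49 to 0.18, limma adjusted p = 0.610). Those of Paqr8 (chr1:20890606-20939650, plus strand) were 4.80 ± 1.05 and 4.25 ± 0.966 (log2 −0.15, interval −0.61 to 0.31, adjusted p = 0.741).

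Paqr4 (chr17:23736186-23740867, minus strand), described as a ceramidase of the Golgi, was 17.3, 16.6 and 16.4 in WT and 11.8, 14.2, 10.0 and 15.3 in edKO. All edKO values lay below all WT values, but the test across genes was not passed (16.8 ± 0.471 against 12.8 ± 2.35, log2 −0.38, interval −0.71 to −0.05, limma adjusted p = 0.197). The interval is not adjusted for the number of genes. Paqr4 overlaps Pkmyt1 on the opposite strand and 7.86% of its read-length stretches are shared, so some reads may belong to either gene.

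Hsdl1 (chr8:119561989-119575183, minus strand) differed little between the groups. It measured 28.7, 28.3 and 31.7 in WT and 30.5, 30.6, 31.0 and 30.9 in edKO. The means of 29.6 ± 1.84 and 30.7 ± 0.226 gave a log2 difference of 0.06 (95% interval −0.15 to 0.26, limma adjusted p = 0.785). Set per kilobase of exon, Hsdl2 was 12.3 ± 1.59 times as abundant as Hsdl1 in WT and 3.03 ± 0.658 times in edKO.

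Against the whole table, 580 of 13788 genes (4.21%) were called by limma at an adjusted p under 0.05, 293 lower (2.13%) and 287 higher (2.08%) in edKO. The relatives gave 1 call in 6, and their median log2 difference was −0.15 beside −0.0036 for all genes. The median absolute log2 difference of all genes was 0.159, so −0.15 is within the size usual for a single gene. Groups did not overlap for 3 of the 6 relatives (Paqr4 and Adipor2 lower, Adipor1 higher) and for 17.4% of all genes. Including the picks, 4 of the 8 listed members were lower without overlap, against 9.04% of all genes, a count that the selection of Paqr9 and Hsdl2 partly fixes.

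Mmd (monocyte to macrophage differentiation associated), a PAQR family gene outside the named relatives, was added after earlier results were known. Its levels were 160, 135 and 136 in WT and 64.1, 73.7, 73.1 and 85.6 in edKO. It fell 1.94-fold, from 144 ± 14.3 to 74.1 ± 8.81 (log2 −0.95, SE 0.11, 95% interval −1.19 to −0.71, limma adjusted p = 0.000704). The call was kept in all 16 alternatives run. Of its read-length stretches, 18.5% are shared, mostly with Gm45883, which overlaps it.
Paqr6, another family gene, was at 0.962 ± 0.239 in WT and 1.53 ± 0.270 in edKO and was not called (log2 0.37, limma adjusted p = 0.359).

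**Figure D2:**
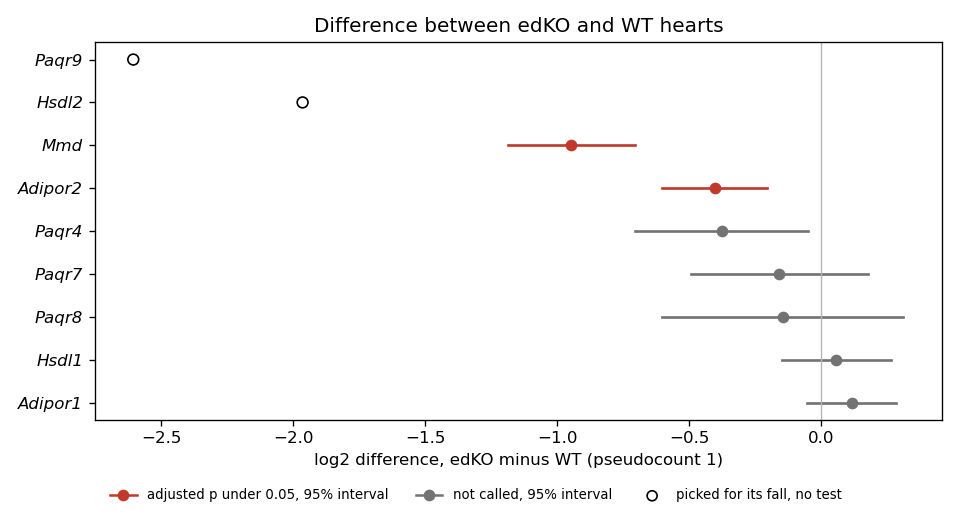
Log2 difference, edKO minus WT, of each listed member and of Mmd on log2(value + 1), as a point with its 95% interval, red where called and grey where not. Paqr9 at −2.61 and Hsdl2 at −1.96 were selected on this value and are open circles with no interval, and Mmd at −0.95 and Adipor2 at −0.40 are the called genes.

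Compared per kilobase of exon, the order of mean levels in WT hearts was Hsdl2, Adipor1, Adipor2, Hsdl1, Paqr4, Paqr7, Paqr9 and Paqr8. Hsdl2 led with 112 ± 11.1 normalised reads per kilobase, followed by Adipor1 with 43.5 ± 1.12 and Adipor2 with 19.0 ± 1.14. Paqr9 stood at 3.66 ± 0.295, below Paqr7 at 5.04 ± 0.849 and above Paqr8 at 0.875 ± 0.191. In edKO hearts Adipor1 (47.1 ± 1.76) came before Hsdl2 (28.8 ± 6.12), and Paqr9 (0.511 ± 0.141) came last, after Paqr8 (0.775 ± 0.176). The library values of those last genes overlapped, from 0.401 to 0.718 for Paqr9 and from 0.517 to 0.909 for Paqr8. Paqr4 (4.85 ± 0.890) and Paqr7 (4.49 ± 0.711) did not differ beyond their spread there.

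Within the PAQR family, the 8 listed genes with Mmd and Paqr6 included, Paqr9 made up 3.09% ± 0.349 of the summed level per kilobase in WT and 0.547% ± 0.146 in edKO. Adipor1 held 36.6% ± 0.589 and 50.5% ± 2.74, and Mmd held 33.7% ± 1.92 and 22.2% ± 2.35. The summed level was 119 ± 5.01 per kilobase in WT and 93.3 ± 2.55 in edKO. Measured against Adipor1 in the same library, Paqr9 per kilobase was 0.0844 ± 0.00850 in WT and 0.0110 ± 0.00342 in edKO, and Adipor2 was 0.438 ± 0.0360 and 0.305 ± 0.0237. A share depends on every gene of the sum. The larger share of Adipor1 goes with the lower levels of Mmd, Adipor2 and Paqr9 and with its own mean per kilobase, 43.5 in WT and 47.1 in edKO.

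**Figure D3:**
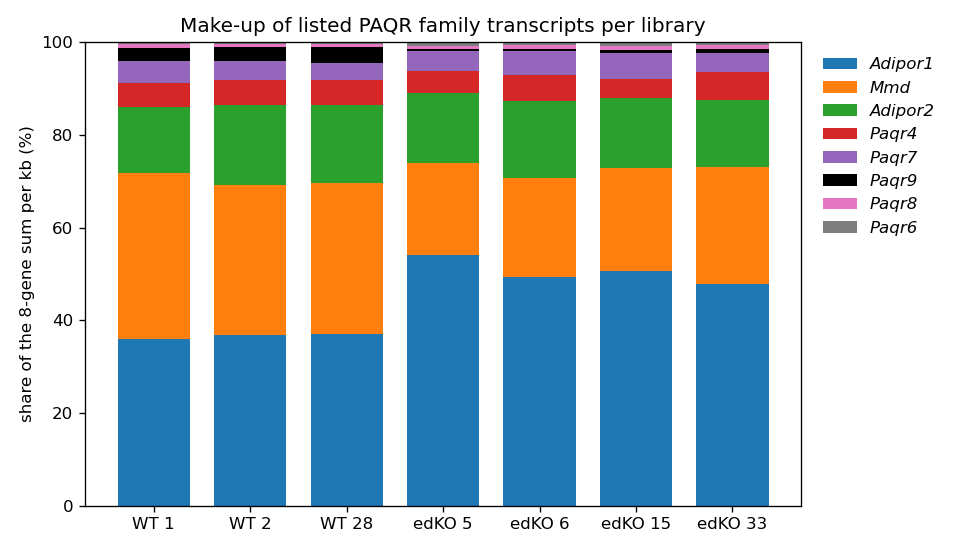
Share (percent) of the summed level per kilobase of 8 PAQR family genes in each library. Adipor1 takes 36.6% on average in WT and 50.5% in edKO, and Paqr9 3.09% and 0.547%.

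The picks were not ordered alike among the edKO hearts. Replicate 33 had the highest edKO level of Paqr9 (6.01) and the lowest of Hsdl2 (56.1). Over all 7 libraries Pearson's r of their log2 values was 0.928, which the gap between groups largely sets, and r of the deviations from the group means was −0.882. Both values are descriptions over 7 libraries that differ in depth, and replicate 33 was the deepest with 24912403 reads against 12108464 to 16836663 in the others.

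The SD of Hsdl2 on the log2 scale was 0.143 among WT and 0.335 among edKO hearts. Its pooled within-group SD was 0.275, beside a median of 0.137 over the 765 genes within 1.5-fold of its level. For Hsdl1 the within-group SD was 0.0547.

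**Figure D4:**
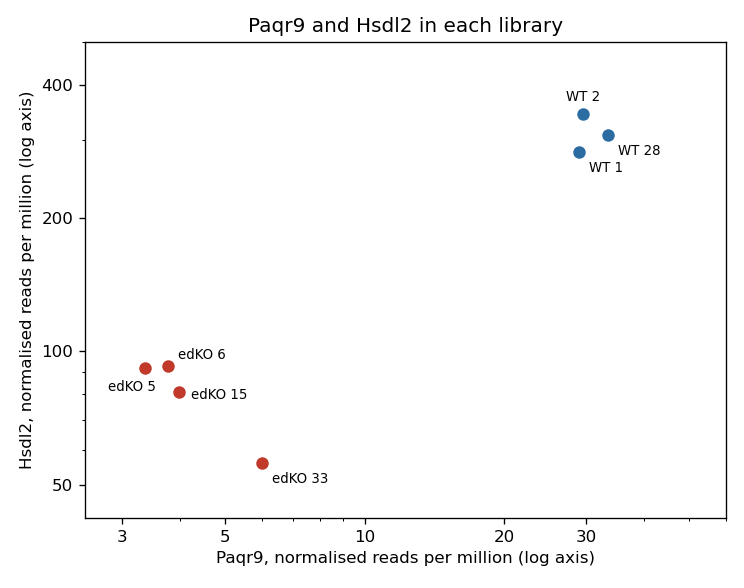
Paqr9 against Hsdl2, both in normalised reads on log axes, with 1 point per library. The 3 WT hearts lie together at the upper right, and edKO replicate 33 lies to the right of and below the other edKO hearts.

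Among 12520 genes with a mean value of at least 1, those with the pattern most like Paqr9 over the 7 libraries were Me1, Scpep1, Gps1, Gpr22 and Ywhag, with r from 0.989 to 0.993. Me1, the cytosolic malic enzyme, was 70.2 ± 4.51 in WT and 25.5 ± 4.78 in edKO. It was also highest among the edKO hearts in replicate 33, at 32.6. Scpep1, a serine carboxypeptidase, was 45.2 ± 3.35 and 21.5 ± 3.29, and Gpr22, an orphan G protein-coupled receptor, was 16.4 ± 1.86 and 5.83 ± 0.773. Gps1, a subunit of the COP9 signalosome, was 67.4 and 53.8 on average and was not called (limma adjusted p = 0.0515). Ywhag, a phosphoprotein-binding adaptor, was 216 and 139.

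The genes most like Hsdl2 were Cat, Dgat2, Slc25a42, Chd3os and Retsat, with r from 0.994 to 0.999. Cat, the peroxisomal hydrogen peroxide-degrading enzyme catalase, was 177, 190 and 184 in WT and 101, 97.3, 94.1 and 75.1 in edKO, in the same order of replicates. Its lowest edKO library was replicate 33, as for Hsdl2. Dgat2, which makes triglyceride from diglyceride, was 90.1 ± 3.58 and 30.8 ± 5.76. Slc25a42, the mitochondrial coenzyme A carrier, was 40.0 ± 3.60 and 17.0 ± 2.99.
Retsat, the retinol saturase, was 77.0 in WT and 30.4 in edKO. Chd3os, an antisense transcript whose reads cannot be told from those of its partner without stated strand, was not called (2.85 and 1.68, limma adjusted p = 0.123). At r of at least 0.95 there were 111 genes for Paqr9 and 102 for Hsdl2, and 34 were in both, which is 30.6% and 33.3% of each. These correlations rest largely on the gap between genotypes and are given with no p.

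Of 7 listed genes starting within 500 kb of Paqr9, 0 were called by limma, 0 had an unadjusted p under 0.05, and edgeR, voom and DESeq2 called 0. The counts around Hsdl2 were the same, with 7 genes and 0 by each rule. Over all genes 4.21% were called and 19.2% had an unadjusted limma p under 0.05, so counts of 0 in 7 genes say little about the neighbours. The nearest genes to Paqr9 by start were U2surp, a splicing-associated protein, at 56.9 ± 2.05 in WT and 55.6 ± 6.91 in edKO, and Pcolce2, a procollagen proteinase enhancer, at 3.48 in both. Those named for Hsdl2 were Ptbp3, an RNA-binding protein, at 61.1 and 66.3, and, beyond E130308A19Rik (13.1 in both groups), which starts nearer and was passed over for its clone-type name, Inip, a subunit of a single-stranded DNA-binding complex, at 20.3 and 19.9.

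The pathways around these genes were described with 7 lists holding 105 listed genes, of which 18 were called, against 4.21% of all genes. The lists were chosen with earlier results of these data known, which may partly set that count. On leaving out each library it ranged from 9 to 25. In the adiponectin axis, 13 of 14 genes were listed, with 1 lower, 1 higher and 11 not called. Prkag2, a regulatory subunit of the energy sensor AMPK, was 152, 174 and 187 in WT and 115, 117, 106 and 120.1 in edKO, and fell from 171 ± 17.6 to 114 ± 6.25 (log2 −0.58, limma adjusted p = 0.00601). Ppargc1a, the coactivator PGC-1 alpha, rose from 88.2 ± 11.8 to 130 ± 18.8 (log2 0.55, limma adjusted p = 0.0421), but that call was lost on leaving out any 1 library except edKO replicate 33, with adjusted p up to 0.166, and neither edgeR nor voom made it. Adipoq, which encodes adiponectin, was not analysed here.

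Of the ceramide and sphingolipid enzymes, 29 of 33 were listed and 28 were not called, where 4.21% of all genes were called. Their median log2 difference was 0.06. Smpd2, a neutral sphingomyelinase, was the 1 called, falling from 47.6 ± 6.73 to 31.7 ± 2.95 (limma adjusted p = 0.0263), a call lost without WT replicate 1 or 2 or edKO replicate 15 (up to 0.142). No ceramide gene was called higher by limma, and 4 of 29 (13.8%) were higher at an unadjusted p under 0.05, against 9.99% of all genes. In the same list edgeR and voom called 0 higher and DESeq2 1 higher, and each of these tools called 1 lower. Among the other progesterone-binding and PAQR family genes, 5 of 8 were listed. Of these 1 was called lower and 1 higher, against 2.13% and 2.08% of all genes, in a list too small for its shares to be read. Mmd was lower, and Pgrmc2, a membrane-associated progesterone receptor component, was higher (81.1 ± 2.91 to 104 ± 3.25, limma adjusted p = 0.0275), a call lost on leaving out any 1 library except edKO replicate 33 (up to 0.145).

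In a list of 10 genes for proteins linked to PAQR9 or PAQR3, 1 was lower and 9 were not called. Over all genes 2.13% were called lower, and 1 call in 10 genes says little about the list. Whether each protein binds PAQR9 or PAQR3 directly was not examined. Insig1, which holds SCAP in the endoplasmic reticulum when sterols are high, fell from 33.7 ± 2.99 to 17.6 ± 1.5 (log2 −0.90, limma adjusted p = 0.00131). Ppara, whose protein PAQR9 acts on in liver, averaged 4.57 in WT and 7.96 in edKO and was not called (limma adjusted p = 0.137). Huwe1 (158 and 143) and Bag6 (199.7 and 187) were not called either.

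Short-chain dehydrogenases of lipid metabolism, the wider family of Hsdl2, had 27 of 31 genes listed. Of these 6 were lower and 2 higher, against 2.13% and 2.08% of all genes, and the median log2 difference was −0.07. On leaving out each library the calls in this list ranged from 3 to 9. Decr1, the mitochondrial dienoyl-CoA reductase of unsaturated fatty acid oxidation, fell 2.83-fold, from 245 ± 9.36 to 86.3 ± 6.49 (limma adjusted p = 2.75e-06). Bdh1, the ketone body dehydrogenase, rose from 3.48 ± 0.999 to 11.5 ± 2.07 (limma adjusted p = 0.00182). Hsd17b7, of cholesterol synthesis, fell from 49.8 ± 5.39 to 24.8 ± 6.94 (limma adjusted p = 0.0152), a call lost without WT replicate 2 or 28 (up to 0.0823). Hadh, which is on this list although it is a hydroxyacyl-CoA dehydrogenase of another fold, fell from 379 ± 47.5 to 256 ± 20.3 (limma adjusted p = 0.0132), a call lost without WT replicate 2 (0.0776). Dhrs4, a peroxisomal reductase of retinoids and carbonyls, fell from 49.0 ± 1.86 to 28.5 ± 3.50 (limma adjusted p = 0.00301).

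The SCP2 domain of Hsdl2 is shared by few proteins, and 3 of 4 such genes were listed. Of these 1 was called lower, against 2.13% of all genes, and 3 genes are too few for the share to be read. Hsd17b4, the peroxisomal multifunctional enzyme, fell from 120 ± 1.26 to 87.0 ± 8.76 (limma adjusted p = 0.0200), a call lost on leaving out any 1 of the WT libraries (up to 0.0964). Scp2 itself averaged 150 and 131 and was not called (limma adjusted p = 0.267).

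For peroxisomal import and lipid enzymes, 25 of 27 were listed, with 6 lower, 19 not called and a median log2 difference of −0.18. On leaving out each library 3 to 7 were called. Lower calls numbered 6 by limma, edgeR, voom and DESeq2 alike, where limma called 2.13% of all genes lower. At an unadjusted limma p under 0.05, 9 of 25 (36%) were lower, against 9.22% of all genes. None was called higher by limma, edgeR, voom or DESeq2 (0 each). At an unadjusted p under 0.05, 1 of 25 was higher, and these counts are near the 2.08% and 9.99% of all genes. Mlycd, malonyl-CoA decarboxylase, was 109, 111 and 90.7 in WT and 37.3, 38.2, 33.6 and 32.5 in edKO. It fell 2.93-fold, from 104 ± 11.3 to 35.4 ± 2.79 (limma adjusted p = 1.37e-05). Cat fell from 184 ± 6.21 to 91.8 ± 11.4 (limma adjusted p = 0.00041), and Abcd3, a peroxisomal fatty acid transporter, fell from 91.1 ± 4.89 to 59.4 ± 3.82 (0.00311). Pxmp4, a peroxisomal membrane protein, fell from 37.4 ± 4.21 to 24.9 ± 2.60 (limma adjusted p = 0.0226), a call lost on leaving out edKO replicate 15 or any 1 of the WT libraries (up to 0.106).

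**Figure D5:**
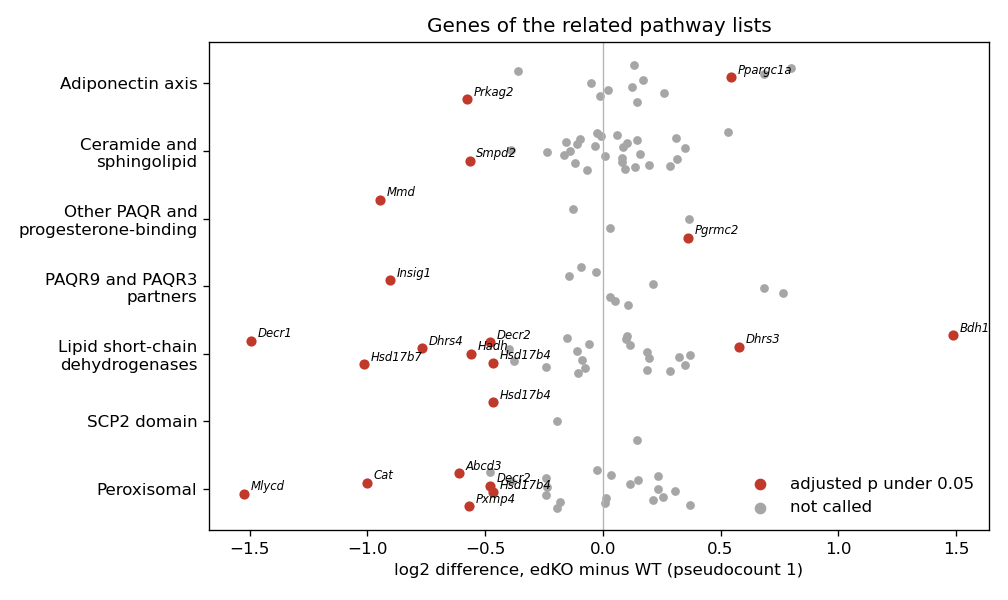
Log2 difference, edKO minus WT, on log2(value + 1) of every listed gene of the 7 pathway lists, 1 point per gene, in red with its name where limma called it and in grey where not. The short-chain dehydrogenases (6 of 27) and the peroxisomal enzymes (6 of 25) hold the most points called lower in the fit of all 7 libraries, out to Mlycd at −1.52, and Bdh1 lies farthest to the right at 1.49. A gene on several lists appears on each.

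Library depth ran from 12108464 to 24912403 reads, and pairs of libraries differed by more than sampling noise (chi-square per degree of freedom 9.10 to 56.5). Whole-heart RNA for the deleted genes averaged 61.6 and 66.1 for Rxra (limma adjusted p = 0.632) and 48.2 and 38.9 for Rxrb (0.139), and neither was called. The Rxrb groups did not overlap, with 45.5 to 51.7 in WT and 34.2 to 44.0 in edKO, whereas those of Rxra did. The 5 cardiomyocyte markers summed to 35545 to 40511 in WT and 35615 to 38723 in edKO. Fibroblast sums were 2382 to 3075 and 1443 to 2918, endothelial 828 to 1067 and 906 to 1058, smooth muscle 438 to 542 and 498 to 613, epicardial 128 to 150 and 81.9 to 183, and macrophage 80.8 to 88.5 and 62.9 to 89.8. Skeletal muscle sums (3 of 5 listed) were 131 to 234 and 55.3 to 117, hepatocyte 21.5 to 23.4 and 22.9 to 37.6, and neuronal (2 of 4 listed) 6.70 to 10.6 and 4.93 to 7.24. Of the adipocyte markers 1 of 7 was listed. The skeletal muscle sums did not overlap between the groups, but each of the 3 listed genes did on its own. Most of the sum was Acta1, at 93.5 to 225 in WT and 51.4 to 110 in edKO. Of the 3 listed genes, 0 were called by limma, edgeR or voom, 1 was called lower by DESeq2, and 3 were lower at an unadjusted limma p under 0.05. Over all genes DESeq2 called 489 of 13788 lower, and 9.22% were lower at an unadjusted limma p under 0.05. Their part in the results was not tested.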

How the data were processed

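Hearts from 3 WT and 4 edKO newborns were sequenced by the authors, from 1 to 10 ng of total RNA amplified by the NuGEN Ovation v2 kit and sequenced as single reads of 61 bases, per the labels. Named without roles, per the submitters' processing notes, were GRCm38, limma, cutadapt and RSEM 1.3.1. The deposited signal is a normalised read value per gene: (reads + 0.5) per 1000000 of effective library size, as found from the values, of which 100% gave whole reads within 1e-06. Libraries held 12108464 to 24912403 recovered reads, and 3 reads were worth 0.122 to 0.262.

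The members and lists were chosen with earlier results of these data known. Values of all 13788 genes, as log2 with a pseudocount of 1, entered limma 3.58.1 (R 4.3.3, trended variance, 2-sided). Its p-values were adjusted by Benjamini-Hochberg across the whole table and called under 0.05. A pseudocount understates changes of low genes. The fit was also run on simulated data, and the outcome of that run is not given and not relied on here. Alternatives were pseudocounts of 0.1 and 5, a mean of at least 1, median centring, no trend, library weights, each library left out, and, chosen after seeing the data, edgeR 4.0.16, voom and DESeq2 1.42.0 on recovered reads. The labels call the replicates biological and name no litters.

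Named genes were the members, Rxra and Rxrb, the 5 genes with highest Pearson's r to each pick, up to 4 called genes per list with the largest change (or the 2 most abundant where none was called), and the nearest listed gene on each side of each pick. Predicted genes, genes with only a clone-type name and pseudogenes were left out of the likeness and neighbour rules. Paqr6, Hadh, the genes next in rank to the picks and the uncalled Ppara, Huwe1, Bag6 and Scp2 fall outside the rule and were chosen after their values were seen. GENCODE M21 on GRCm38 matched 13716 of 13788 IDs (99.5%) and gave positions and exon lengths. RefSeq promoter windows on GRCm38.p6 covered 8 of the 9 members, and Paqr9 had none. The planned protein comparison was not run, and 1 marker list is not reported here.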

Additional observations from a re-analysis of the deposited data

Results flagged for a closer look

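Of 53 groups of 4 edKO libraries checked for a library far from the other 3, 3 stood out, and chance alone gives about 1 in 20. Adipor2 in edKO replicate 6 was 95.6, above the other edKO libraries at 81.9 to 83.4. Dgat2 in edKO replicate 33 was 22.1, below the others at 33.1 to 34.2. Inip had its highest edKO level, 26.2, apart from the rest.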

How the results depend on the processing

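Over all genes, the 580 calls became 370 without the mean-variance trend, 1284 with library weights and 1052 with DESeq2, and ranged from 222 to 1177 on leaving out each library. edgeR called 534 and voom 429. The 18 calls in the pathway lists ranged from 9 to 25 on leaving out each library. Paqr9 ranged from −2.84 to −1.95 on the log2 scale (−1.95 with a pseudocount of 5) and Hsdl2 from −2.04 to −1.80 over 16 alternatives. Adipor2 lost its call in 6 of the 16 alternatives, with adjusted p from 0.00353 to 0.155. The cause was not tested. No direction reversed. With deviations from the group means in place of the values, 0 of the 5 genes most like Paqr9 and 0 of the 5 most like Hsdl2 were shared. Other genes ranked higher there, but r of the deviations stayed positive for the named genes. It was 0.596 (Ywhag) to 0.937 (Scpep1) with Paqr9 and 0.940 (Dgat2) to 0.980 (Cat) with Hsdl2. Choosing these genes by r over the same 7 libraries partly sets those values. With reads scaled by the library total, 4 of 8 members did not overlap, against 5. With the longest transcript as length, the WT order kept 8 of 8 places and the edKO order 6. No paired analysis was possible because the groups share no replicate numbers. Depth limits Paqr6, Paqr8 and, in edKO, Paqr9.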
